A study of Homo sapiens with 12 samples.

Results

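MIAPaCa2 cells (Miapaca2 in the labels) that grow under oxamate were compared with their parental cells while both were exposed to the drug. The comparison took the 3 libraries of LDHA inhibitor resistant cells treated with the LDHA inhibitor against the 3 libraries of Parental cells given the same treatment, which are 6 of the 12 RNA-seq libraries of the series. It was described across all expressed genes, that is the 14582 of 26475 gene symbols that had enough counts to be tested. MIAPaCa2 is an established pancreatic ductal adenocarcinoma line, and both groups were grown in the same serum-containing medium. The resistant cells were obtained by keeping parental cells in oxamate for several weeks and are described by the study as polyclonal, so they carry a history of exposure as well as the present one. The other 6 libraries hold the same pair of lines left untreated, 3 libraries each, and they share no library with the oxamate-treated ones. The labels do not give the dose or the time of the treatment that preceded RNA extraction. They also do not say that replicates came from separate cultures, so each p-value below measures the spread between these libraries, which may be technical.

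Oxamate resembles pyruvate and competes with it for lactate dehydrogenase, the enzyme that turns the pyruvate made by glycolysis into lactate and restores the NAD that glycolysis needs. Cells whose lactate production is blocked must reoxidise NADH in mitochondria or through other shuttles, or else slow glycolysis. Genes of glucose uptake, hypoxia signalling, amino acid stress and protein folding are known to respond to such changes, and growth factor signalling, NF-kappaB and chromatin regulators have been linked to the survival of tumour cells under drugs.

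The deposited expected counts summed to between 46698729 and 76423863 in the 6 oxamate-treated libraries, and every parental library was deeper than every resistant one. Levels are given as CPM after TMM scaling, and 3 counts, the floor used here for levels too low to measure, corresponded to at most 0.0571 CPM in the parental and 0.0581 CPM in the resistant libraries (this floor covers counting error only). Over all 12 libraries, the first principal component of the most variable genes held 77.1% of their variance and separated the lines. These genes were picked for their variance across the same libraries, so the share does not hold for all expressed genes. Parental replicate 3 under oxamate stood apart from the other 2 by its nuclear-retained RNA: MALAT1, a nuclear noncoding RNA, was at 289, 281 and 596 CPM in the parental and 577, 609 and 742 CPM in the resistant libraries, so that this replicate overlapped the resistant range. The simple-epithelium keratins KRT8, KRT18 and KRT19 and the mesenchymal VIM were abundant in both lines, whereas EPCAM was at or under the floor in all libraries and none of the 7 acinar markers could be tested. Of the other marker lists, DCN, LUM, PTPRC, CD3E and KDR were at or under the floor in each group mean. The markers of simple epithelium summed to 3700 to 3890 CPM in parental and 2010 to 2060 CPM in resistant cells under oxamate, with 3 of 8 tested markers higher and 4 lower. Some markers of other cell types were well above the floor. SYP and PAX6 made up most of the endocrine list, which summed to 46.0 to 47.7 CPM in parental and 41.1 to 41.4 CPM in resistant cells. CD68, on the immune list, was at 220.2, 214 and 211 CPM in parental and 57.8, 58.9 and 56.4 CPM in resistant cells. COL1A2, on the fibroblast list, was at 950.0, 930.0 and 942 CPM and 787, 783 and 800.4 CPM. COL3A1, on the same list, was at 35.5, 37.2 and 36.9 CPM and 13.6, 13.8 and 13.7 CPM (-1.42 on the log2 scale, called lower). The part of other cell types in the results below was not tested.

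Under oxamate, 3317 genes were higher and 1659 were lower in resistant than in parental cells. A gene was called here when edgeR's quasi-likelihood test gave it an adjusted p (Benjamini-Hochberg) below 0.05 and its fold exceeded 1.5, which 34.1% of the genes tested passed, 22.7% higher and 11.4% lower. The larger changes were mostly increases: a fold over 4 was found for 515 higher and 53 lower genes, and a fold over 16 for 75 and 2. These are fitted folds. Of the called genes, 90 higher and 6 lower ones had at most 3 counts in each library of the lower group. For these only a bound of the fold can be given. The balance depended on the level. At 8 CPM or more, averaged over the 12 libraries, 1236 of 9623 genes were higher and 1190 lower, whereas below that level 2081 were higher and 469 lower. A gene of low level could pass the count filter through its higher group alone. The part of this choice in the balance was not tested. The balance depended on the scaling too, since library size alone in place of TMM moved the median log2 difference of all genes from 0.015 to 0.34 and gave 5203 higher and 550 lower genes. The 3 values of 1 line lay wholly above or below those of the other in 11847 genes.

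**Figure D1:**
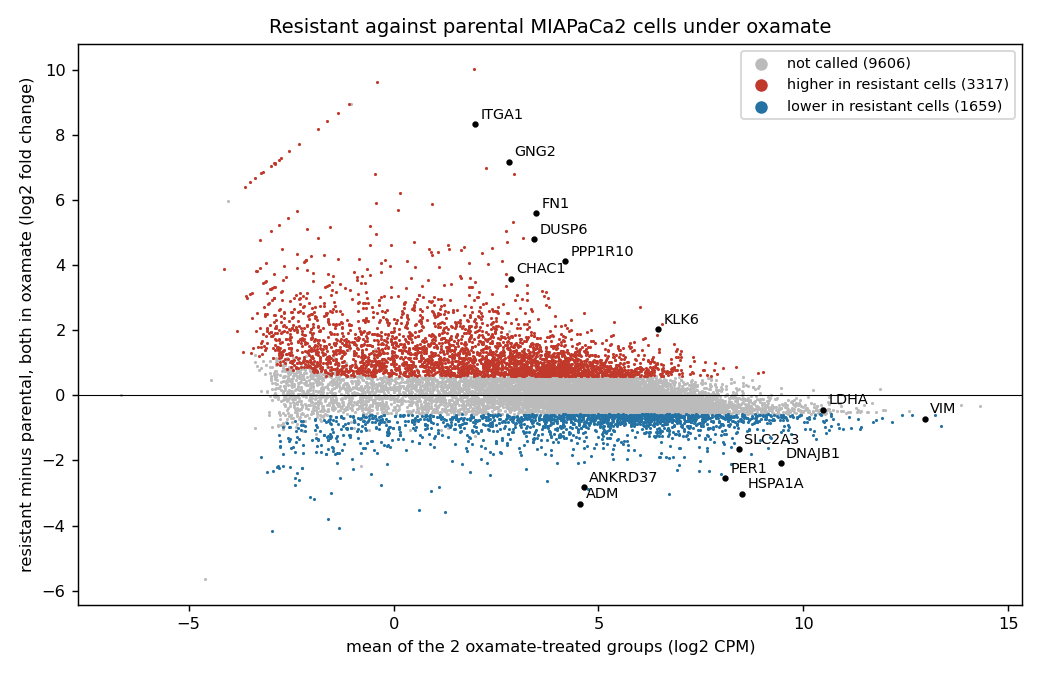
Log2 fold change between resistant and parental cells, both in oxamate, against the mean level of the 6 libraries (log2 CPM, values under 0.01 CPM drawn at 0.01) for the 14582 genes tested. The 3317 genes called higher lie largely at low levels, and the 1659 called lower include abundant genes such as DNAJB1 and HSPA1A.

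LDHA, which encodes the subunit that oxamate inhibits (chromosome 11, 18394388 to 18408425, GRCh38), was at 1701, 1694 and 1546 CPM in the 3 parental libraries and 1223, 1217 and 1198 CPM in the 3 resistant libraries. All resistant libraries lay below all parental ones, with -0.44 on the log2 scale (standard error, SE, 0.03, adjusted p = 1.52e-09 from edgeR), but the fold was under 1.5. Without the drug the difference was -0.16, and the difference between the 2 differences was -0.28 (adjusted p = 9.55e-05). LDHB, which encodes the other main subunit, was at or under the floor in every library of both lines.

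Among the genes that reached at least 10 CPM, GNG2 had the largest increase. GNG2, a gamma subunit of heterotrimeric G proteins (chromosome 14, 51826195 to 51979342, GRCh38), was at 0.107, 0.0952 and 0.0869 CPM in parental and 14.1, 14.9 and 13.1 CPM in resistant libraries. Its log2 fold change was 7.17 (SE 0.13, adjusted p = 1.91e-16), and the 2 groups were far apart in each library. FN1, which encodes the matrix protein fibronectin (chromosome 2, 215360440 to 215436172), was at 0.429, 0.400 and 0.507 CPM in parental cells. In resistant cells it was at 21.5, 22.1 and 21.8 CPM, with 5.59 on the log2 scale (SE 0.10). ENPP1, an ectoenzyme that hydrolyses extracellular nucleotides, went from 0.340, 0.362 and 0.391 CPM to 15.004, 14.6 and 14.4 CPM (5.31 on the log2 scale). All 3 genes were also high in untreated resistant cells, with log2 differences of 6.80, 5.78 and 4.71. In bulk RNA, more RNA in each cell and more cells that express a gene cannot be told apart.

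DUSP6, a phosphatase that turns off ERK and is itself induced by it (chromosome 12, 89347232 to 89353271), was at 0.679, 0.819 and 0.753 CPM in parental and 21.3, 20.1 and 21.3 CPM in resistant cells. The log2 fold change was 4.80 (SE 0.10), and the line difference was wider under oxamate than without it by 1.03 (adjusted p = 5.18e-05). IKZF2, a zinc finger factor of the Ikaros family, was at 0.340, 0.305 and 0.493 CPM against 12.9, 13.2 and 12.8 CPM. NRIP1, a corepressor of nuclear receptors, was at 0.590, 0.533 and 0.652 CPM against 15.7, 18.4 and 17.3 CPM, and HIVEP2, a zinc finger factor, at 1.34, 1.62 and 1.97 CPM against 16.9, 17.5 and 17.9 CPM. Each of the 3 was lower in every parental than in any resistant library, with log2 fold changes of 5.06, 4.84 and 3.39. PPP1R10, a nuclear regulatory subunit of protein phosphatase 1, was at 1.86, 2.09 and 1.97 CPM in parental and 33.8, 32.5 and 37.0 CPM in resistant cells (4.13 on the log2 scale). The remaining large increases were 6.79 for the uncharacterised LOC101929380, 4.70 for SEPP1, a secreted selenium carrier, 4.54 for TNFSF15, a cytokine of the tumour necrosis factor family, 4.12 for KLHL4, 3.72 for MAP10, which binds microtubules, 3.57 for CHAC1 and 3.35 for SLC7A11.

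In 90 of the genes called higher, each of the 3 parental libraries held at most 3 counts, so only a lower bound of the fold can be given. Against the highest floor of a parental library, ITGA1, the collagen-binding integrin alpha 1 subunit (chromosome 5, 52787896 to 52959210), was at least 138-fold higher, with 8.15, 8.25 and 7.22 CPM in the resistant libraries. IGFBP5, which binds insulin-like growth factors (chromosome 2, 216672105 to 216695525), was at least 136-fold higher, with 7.81, 8.17 and 7.30 CPM. VAV1, an exchange factor for small GTPases, was at least 38.7-fold higher, and FREM2 and FRAS1, proteins of epithelial basement membranes, at least 37.3-fold and 25.4-fold. These 5 genes were chosen after their values had been seen. Only 6 genes called lower were at or under 3 counts in all resistant libraries. The highest parental level among them was that of IL13RA2, a decoy receptor for interleukin 13, with 0.697, 0.742 and 0.826 CPM in parental and 0.0191, 0.0581 and 0.0503 CPM in resistant cells.

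The decreases reached less far than the increases, as the counts by fold above show. ADM, the vasodilator peptide adrenomedullin (chromosome 11, 10304680 to 10307397), was at 43.3, 40.8 and 44.0 CPM in parental and 4.08, 4.05 and 4.56 CPM in resistant libraries. This was the largest decrease among genes of at least 10 CPM, -3.33 on the log2 scale (SE 0.05, adjusted p = 6.16e-17). ANGPTL4, a secreted inhibitor of lipoprotein lipase, was at 299, 289 and 291 CPM against 59.1, 58.7 and 58.4 CPM. PER1 and NR1D1, both components of the circadian clock, fell by a similar amount. PER1 was at 454, 445 and 504 CPM against 79.0, 75.5 and 84.7 CPM and NR1D1 at 201, 194 and 205 CPM against 41.2, 38.9 and 41.1 CPM, with log2 fold changes of -2.55 and -2.31. Beside these, 4 genes of signalling were among the 15 largest decreases. CXCR4, the receptor of the chemokine CXCL12 (chromosome 2, 136114349 to 136118165), was at 15.1, 15.7 and 16.1 CPM against 3.33, 3.10 and 3.42 CPM, and SSTR5, a somatostatin receptor, at 23.9, 22.7 and 22.5 CPM against 3.54, 4.03 and 3.67 CPM. RGS5, which shortens G protein signals, was at 435, 441 and 406 CPM against 79.6, 82.0 and 78.7 CPM, and RHOB, an endosomal small GTPase, at 493, 480.0 and 489.7 CPM against 112, 113 and 113.8 CPM. The groups did not overlap for any of them, and the log2 fold changes were -2.25, -2.62, -2.42 and -2.11. RSRP1 had a log2 fold change of -2.89.

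**Figure D2:**
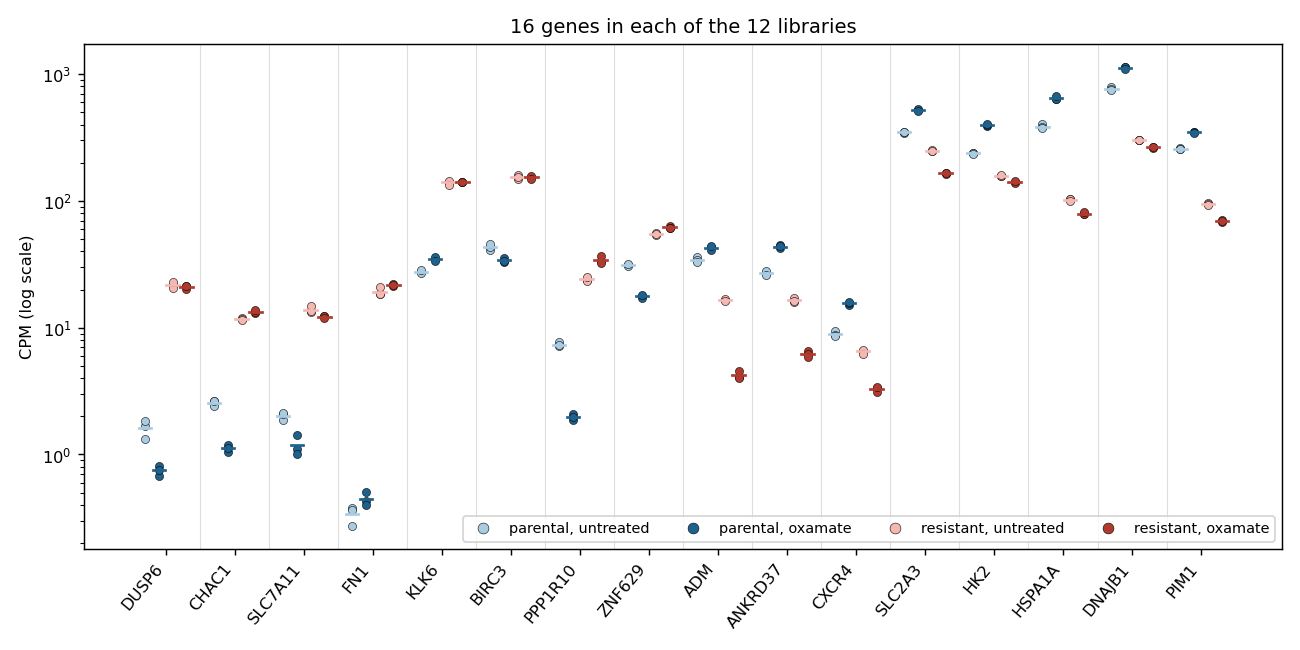
Level (CPM, log axis) of 16 genes in each of the 12 libraries, with 1 point a library and a line at each group's mean. In the 8 genes on the left every oxamate-treated resistant library lies above every oxamate-treated parental one, and in the 8 on the right below it.

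Glucose uptake and glycolysis was the pathway next to the drug's target, and 16 of its 30 genes were lower in oxamate-treated resistant cells while 3 were higher. The median log2 difference of the list was -0.70, against 0.015 for all genes and -0.32 for the genes over 64 CPM. With library size alone 12 remained lower by count. The glucose transporter SLC2A3 (chromosome 12, 7919230 to 7936275) was at 524, 527 and 511 CPM in parental and 167, 163 and 165 CPM in resistant cells (-1.66 on the log2 scale, SE 0.02, adjusted p = 1.59e-17). Its relative SLC2A1 was at 263, 263 and 261 CPM against 85.4, 89.0 and 87.7 CPM (-1.59). HK2, the hexokinase that traps glucose in the cell, was at 389.7, 395 and 405 CPM against 141, 139 and 143 CPM, and ALDOC, an aldolase, at 173, 166 and 165 CPM against 44.0, 45.7 and 43.9 CPM. The decreases thus ran from transport to the later steps, with log2 fold changes of -1.49 for HK2, -1.92 for ALDOC, -1.21 for PFKFB3, which makes the activator of phosphofructokinase, -0.98 for PGK1, -0.93 for GAPDH and -0.82 for ENO2. PKM, the last enzyme of the pathway, differed by -0.52, a fold under 1.5. The 3 higher genes were TIGAR, which removes the same activator (1.28), the transporter SLC2A6 (0.95) and the muscle enolase ENO3 (0.72). TXNIP, an arrestin that limits glucose uptake and whose mRNA follows glucose metabolites, was at 1705, 1722 and 1643 CPM against 731, 735 and 732 CPM and so was lower as well (-1.21).

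Of the 26 tested genes that handle pyruvate and lactate, 6 were lower (23.1%) and 1 was higher (3.85%), with a median of -0.28. With library size alone 2 were lower. SLC16A1 and SLC16A3, which carry lactate across the plasma membrane, fell. SLC16A1 was at 385, 391.7 and 370.2 CPM in parental and 167, 169 and 167 CPM in resistant libraries, and SLC16A3 at 956, 958 and 968 CPM and 437, 435 and 436 CPM. Their log2 fold changes were -1.19 and -1.14, with SEs of 0.03 and 0.03. BSG, the chaperone that brings these transporters to the membrane, differed by -0.75 on the log2 scale, and the subunits of the mitochondrial pyruvate carrier, MPC1 and MPC2, by -0.61 and -0.75. PDPR, a regulator of pyruvate dehydrogenase phosphatase, was the 1 gene higher (0.60). Among 21 genes of redox shuttles and NAD synthesis, 2 were higher and 4 lower, or 3 and 2 with library size alone. Their shares, 9.52% and 19%, stand beside 22.7% and 11.4% of all genes. SLC25A13, the aspartate-glutamate carrier of the malate-aspartate shuttle, was at 7.85, 7.02 and 8.10 CPM in parental and 21.5, 21.9 and 22.8 CPM in resistant cells, which is 1.52 on the log2 scale. NAMPT, which salvages nicotinamide into NAD, was at 780.1, 782 and 733 CPM against 459.9, 474 and 447 CPM (-0.73), and QPRT, which makes NAD from quinolinate, at 19.6, 19.0 and 18.2 CPM against 8.50, 9.23 and 8.76 CPM (-1.10). NAPRT, which uses nicotinic acid, went the other way (0.84), and the cytosolic glycerol phosphate dehydrogenase GPD1 and the transhydrogenase NNT were also lower (-1.19 for GPD1).

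Nuclear-encoded subunits of oxidative phosphorylation had 11 of 73 genes lower and 0 higher, with a median of -0.48. Only 5 were lower with upper-quartile factors and 0 with library size alone. Their 15.1% lower stands beside 11.4% of all genes and 18.9% of the genes over 64 CPM. COX6B1, a subunit of cytochrome oxidase, was at 168, 162 and 162 CPM against 108, 105 and 106 CPM (-0.62 on the log2 scale). The TCA cycle had 4 of 22 genes lower, and this 18.2% is near the 18.9% of the genes over 64 CPM. Among them were IDH2, the mitochondrial isocitrate dehydrogenase that uses NADP (-0.85), and SDHA, a subunit of succinate dehydrogenase (-0.63). The pentose phosphate pathway had 3 of 12 (25%) lower, PGD (-0.62), RPIA (-0.61) and SHPK (-0.63). In sterol synthesis, 9 of 23 genes were lower and 0 higher, a median of -0.39, and 3 were lower with library size alone. INSIG1, which holds the sterol-sensing SREBP complex in the endoplasmic reticulum and is its target, was at 202, 212 and 198 CPM against 46.9, 45.5 and 45.5 CPM, the widest difference of the list (-2.15). CYP51A1, a demethylase of lanosterol, differed by -0.84. With library size alone no gene of the TCA cycle or the pentose phosphate pathway was lower. Fatty acid oxidation had 3 genes higher and 2 lower of 27. Its shares, 11.1% and 7.41%, lay below the 22.7% and 11.4% of all genes. CPT2, which hands acyl groups to matrix coenzyme A, was at 19.6, 19.1 and 19.2 CPM against 37.4, 39.2 and 37.8 CPM (0.98). Fatty acid synthesis had 3 higher and 3 lower of 19, or 4 and 0 with library size alone. Its shares were 15.8% each way, against 22.7% and 11.4% of all genes. SCD, the stearoyl desaturase, was at 1975, 2019.5 and 1956 CPM against 1279, 1279 and 1283 CPM (-0.63).

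HIF is a transcription factor that oxygen-dependent hydroxylases keep low, and it turns on genes of oxygen supply and anaerobic metabolism. Of the 28 HIF targets tested outside glycolysis, 18 were lower and 3 higher in resistant cells under oxamate, with a median of -0.73; with library size alone 10 were lower. ANKRD37, a small ankyrin-repeat protein (chromosome 4, 185396021 to 185400628), was at 44.6, 42.2 and 44.3 CPM in parental and 6.53, 6.19 and 5.92 CPM in resistant libraries, a log2 fold change of -2.82 (SE 0.05). NDRG1, a stress-induced growth regulator, was at 415, 409 and 408 CPM against 233, 232 and 233 CPM, and VEGFA, the angiogenic growth factor, at 178, 178 and 204 CPM against 123, 119.8 and 122 CPM. All 3 were thus lower in every resistant library (-0.82 for NDRG1 and -0.62 for VEGFA). EGLN3, the HIF hydroxylase that HIF itself induces, was among the 3 higher genes, at 0.0715, 0.209 and 0.0724 CPM against 0.555, 0.871 and 0.638 CPM (2.58), with WSB1 (1.37) and the lysyl hydroxylase PLOD2 (0.999). The promoter of ANKRD37 is shown because it carries the motif of this group in 2 copies. In the 250 bases before its start in RefSeq (GRCh38.p14, chr4:185396591-185396840, plus strand), both copies of ACGTGC, the core of the hypoxia response element, are in capitals:
ANKRD37: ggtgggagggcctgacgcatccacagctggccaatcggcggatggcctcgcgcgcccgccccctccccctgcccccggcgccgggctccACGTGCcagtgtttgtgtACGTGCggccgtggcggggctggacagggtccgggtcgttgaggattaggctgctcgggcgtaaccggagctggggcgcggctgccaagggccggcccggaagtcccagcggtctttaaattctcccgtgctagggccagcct
On either strand this motif was found in 10 of the 22 promoters available for the list and in 11.2% of the 10575 promoters of tested genes. Those of ADM and ANGPTL4, both lower, lacked it. Among its holders KDM4B, BHLHE40 and MIR210HG were not called, and the others were lower. A match is a description of these letters and not a mapped binding site.

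The heat shock response had 17 of 30 tested genes lower and 1 higher, with a median of -0.67, and 9 were lower with library size alone. HSPA1A, the inducible HSP70 (chromosome 6, 31815464 to 31817946), was at 635, 634 and 674 CPM in parental and 78.5, 78.6 and 81.6 CPM in resistant cells. Its neighbour HSPA1B (31827735 to 31830255) was at 189, 181 and 189.7 CPM and 22.5, 22.4 and 23.3 CPM. The pair had almost the same log2 fold change, -3.03 and -3.04, but the copies are nearly identical and the division of their reads is uncertain. DNAJB1, the HSP40 partner of HSP70, was at 1141, 1130.5 and 1107 CPM against 266, 264 and 265 CPM (-2.09, SE 0.02, adjusted p = 2.36e-18). HSPB1, a small heat shock protein, was at 2073, 2040.3 and 2056 CPM against 939, 921 and 930.0 CPM (-1.14), and the constitutive HSPA8 at 2199, 2187 and 2077 CPM against 1025, 1054 and 1003 CPM (-1.07). HSPA1L, a relative of HSP70 that lies beside it in the genome and may share its reads, was the 1 higher gene (2.05), and HSF1, the factor that drives the response, differed by -0.37, a fold under 1.5. HSPA8 is shown as a promoter with 2 heat shock elements, searched here as GAA, TTC and GAA with any 2 bases between one and the next, in the 250 bases before its start (GRCh38.p14, chr11:123062137-123062386, minus strand), with the matches on either strand in capitals:
HSPA8: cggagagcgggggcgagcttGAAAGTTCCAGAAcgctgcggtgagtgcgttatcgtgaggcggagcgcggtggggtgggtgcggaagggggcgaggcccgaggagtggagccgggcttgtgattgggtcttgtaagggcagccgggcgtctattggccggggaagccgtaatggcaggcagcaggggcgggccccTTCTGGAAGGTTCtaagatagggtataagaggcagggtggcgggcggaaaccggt
This pattern was in 8 of the 28 promoters available for the list and in 0.53% of all promoters of tested genes. Those of HSPA1A, HSPA1B, DNAJB1 and HSPB1 lacked it. Among its holders HSPD1, DNAJB6 and CHORDC1 were not called, and the others were lower. Chaperones and XBP1 targets of the endoplasmic reticulum were lower as well, in 11 of 28 genes against 1 higher (median -0.50), with 4 lower under library size alone. HSPA5, the main chaperone there, was at 1814, 1797 and 1797 CPM in parental and 721, 716 and 712 CPM in resistant cells (-1.33). DNAJB9, its co-chaperone, was at 63.9, 66.5 and 63.2 CPM against 16.3, 17.1 and 16.9 CPM (-1.94), and CALR, which folds glycoproteins, differed by -0.87.

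The integrated stress response slows translation and raises ATF4 when amino acids, folding capacity or energy run short. Of its 38 tested members 7 were higher and 7 lower, 18.4% each, against 22.7% and 11.4% of all genes. The median of the list was -0.16. With library size alone, 11 were higher and 4 lower. CHAC1, which degrades glutathione (chromosome 15, 40952962 to 40956519), was at 1.05, 1.18 and 1.13 CPM in parental and 13.1, 13.3 and 13.7 CPM in resistant libraries. SLC7A11, which imports cystine for glutathione synthesis, was at 1.11, 1.01 and 1.42 CPM against 12.4, 12.4 and 12.0 CPM. These were the widest increases, 3.57 (SE 0.07) and 3.35 (SE 0.09). The other higher members were TRIB3 (0.91), CARS (0.65), PSAT1 (0.62), SESN2 (0.60) and ATF4 itself, at 168, 164 and 179 CPM against 259, 255 and 258 CPM (0.59). On the lower side were PPP1R15A, which reverses the block of translation, at 275, 271 and 291 CPM against 119.6, 119 and 119.8 CPM (-1.22), and DDIT3, the death-linked factor CHOP, at 56.4, 54.7 and 55.1 CPM against 23.4, 22.8 and 26.1 CPM (-1.20). GDF15, a secreted stress signal, was at 17.5, 19.4 and 17.2 CPM against 6.26, 5.34 and 6.39 CPM (-1.58), and SLC3A2, the partner chain of SLC7A11, was lower (-0.75). ASNS, asparagine synthetase, differed by only 0.08. CHAC1 is shown for the amino acid response element TGATGNAA, whose reverse complement is in capitals (250 bases before the RefSeq start, GRCh38.p14, chr15:40953221-40953470, plus strand):
CHAC1: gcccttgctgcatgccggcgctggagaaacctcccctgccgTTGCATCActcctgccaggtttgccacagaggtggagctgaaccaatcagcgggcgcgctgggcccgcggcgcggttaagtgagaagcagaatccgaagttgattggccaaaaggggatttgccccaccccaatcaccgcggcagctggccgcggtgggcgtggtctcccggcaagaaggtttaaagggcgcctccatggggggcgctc
The element was in 9 of the 28 promoters available for the list and in 2.64% of all, and its holders included ATF3 and SLC3A2, which were lower, and ASNS.

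NF-kappaB factors are kept in the cytoplasm by inhibitors that they also induce, and they drive genes of inflammation and survival. Of 23 tested subunits and targets, 14 were higher and 0 lower under oxamate, with a median of 0.79, and 18 were higher with library size alone. BIRC3, an inhibitor of apoptosis proteins, was at 32.8, 35.7 and 33.7 CPM in parental and 155, 159 and 149.9 CPM in resistant cells, a log2 fold change of 2.18 (SE 0.04, adjusted p = 6.03e-16). TNFAIP3, the enzyme A20 that ends the signal, was at 10.5, 9.04 and 10.3 CPM against 37.5, 35.5 and 37.4 CPM. RELB, a subunit of the noncanonical pathway, was at 17.8, 17.8 and 17.7 CPM against 42.9, 42.8 and 40.7 CPM. The chemokine CXCL2 was at 5.45, 5.75 and 5.82 CPM against 17.2, 15.4 and 17.8 CPM, and these 3 genes too were higher in every resistant library (1.89, 1.25 and 1.56). RELA differed by -0.07, CXCL1 by -0.04 and CXCL8 by 0.04, none of them called. Without the drug the median was 0.78 and 14 genes were higher. The promoters of TNFAIP3 and CXCL2, both higher, are shown with the search pattern, GGGA and TTCC with any 2 bases between them on either strand, in capitals, TNFAIP3 at chr6:137867009-137867258 (plus strand) and CXCL2 at chr4:74099196-74099445 (minus strand, with overlapping matches), both in GRCh38.p14:
TNFAIP3: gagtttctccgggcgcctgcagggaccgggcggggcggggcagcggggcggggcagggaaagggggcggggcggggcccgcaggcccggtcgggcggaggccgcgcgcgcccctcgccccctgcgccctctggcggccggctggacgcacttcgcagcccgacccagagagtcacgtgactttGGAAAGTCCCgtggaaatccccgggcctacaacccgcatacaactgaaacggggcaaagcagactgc
CXCL2: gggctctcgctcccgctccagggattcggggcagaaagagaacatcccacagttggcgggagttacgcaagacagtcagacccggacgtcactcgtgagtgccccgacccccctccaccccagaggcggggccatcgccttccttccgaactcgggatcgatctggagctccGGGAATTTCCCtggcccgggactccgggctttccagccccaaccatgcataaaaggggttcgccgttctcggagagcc
The pattern was in 11 of the 20 promoters available for the list and in 2.26% of all promoters of tested genes. Those of BIRC3, TRAF1, IL1B, ICAM1 and TNFAIP2, all higher, lacked it. Among its holders CXCL1, NFKB2, NFKBIA and NFKBIB were not called, and the others were higher.

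The RAS-MAPK pathway carries growth factor signals and induces its own inhibitors, and these feedback genes were unequal between the lines. Among 31 regulators and targets, 12 were higher (38.7%) and 5 lower (16.1%), with a median of 0.14. The GTPase-activating protein RASA1 was at 31.1, 31.2 and 32.1 CPM in parental and 104, 106 and 104 CPM in resistant libraries, and its relative RASAL2 at 6.53, 5.96 and 6.53 CPM and 27.3, 27.0 and 28.3 CPM. SPRY2, an inhibitor of the pathway, was at 100.5, 99.2 and 100.2 CPM against 159, 162 and 164 CPM (0.69), SPRED1 at 8.76, 9.71 and 9.24 CPM against 22.5, 22.4 and 23.2 CPM (1.30) and DUSP4 at 0.894, 1.18 and 0.898 CPM against 4.44, 4.59 and 3.81 CPM (2.12). The 5 lower genes included the MAPK phosphatase DUSP7 (-1.18), the growth factor HBEGF (-1.38) and the AP-1 subunit FOSL1 (-1.10). Immediate early genes, which cells switch on within minutes of a stimulus, had 6 higher (20.7%) and 13 lower (44.8%) of 29. Their median was -0.56, and the shares over all genes were 22.7% and 11.4%. The survival kinases PIM1, PIM2 and PIM3 were all lower. PIM1 (chromosome 6, 37170203 to 37175426) differed by -2.32 on the log2 scale, with 348, 350.4 and 343 CPM against 70.7, 68.7 and 69.5 CPM, PIM3 by -1.46 and PIM2 by -1.20. ZFP36, which destabilises inflammatory mRNAs, was at 126, 121 and 130.2 CPM against 51.6, 51.7 and 54.9 CPM (-1.25). The 6 higher genes included CTGF, a matrix-associated target of YAP and TGF-beta, at 0.250, 0.286 and 0.275 CPM against 5.88, 6.23 and 6.86 CPM (4.54), EGR2 (2.25) and EGR1 (0.88), whereas MYC differed by -0.24 and FOS by -0.28.

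In the TGF-beta and WNT pathways 16 of 36 genes were higher and 3 lower, with a median of 0.53 under oxamate and 0.19 without it. TGFBR2, the receptor that binds TGF-beta (chromosome 3, 30606502 to 30694142), was at 0.143, 0.0190 and 0.0580 CPM in parental and 8.40, 10.1 and 9.78 CPM in resistant libraries. The ligand TGFB2 was at 0.0358, 0.133 and 0.0290 CPM against 3.85, 3.62 and 3.86 CPM. Parental cells thus had next to no TGFBR2 or TGFB2 RNA, whereas the coreceptor TGFBR3 was lower in resistant cells (-0.93) with TGFB3 (-1.02). These targets of the pathway were higher: ID1 at 105, 101 and 110.0 CPM against 213, 215 and 224 CPM (1.04), ID2 (1.40), SKIL (1.26) and SMAD6 (1.25). The WNT ligands WNT5A, WNT3 and WNT4 were higher by 1.75, 2.05 and 1.66, and the feedback gene AXIN2 was at 1.93, 1.69 and 1.97 CPM against 3.02, 3.19 and 2.90 CPM (0.70). AXIN2 without the drug differed by 0.01, and the change of that difference was called (0.69, adjusted p = 3.59e-04).

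At the cell surface, 6 of the 15 kallikrein-related peptidases could be tested, of which 4 were higher and 1 was lower. The change of the line difference was called downward in 3 and upward in 0 of them. KLK6, a secreted serine protease (chromosome 19, 50958631 to 50969673), was at 34.7, 36.2 and 33.5 CPM in parental and 141, 142 and 142 CPM in resistant cells (2.02, SE 0.03). KLK10 was at 0.930, 1.09 and 1.16 CPM against 3.18, 2.75 and 3.29 CPM, and KLK5 and KLK7 differed by 0.95 and 1.09, less than without the drug (1.77 and 1.74), a narrowing that passed the test for both. The family is closely related and its reads may be shared in part. Integrins and laminins had 5 higher (22.7%) and 3 lower (13.6%) of 22 (7 and 0 with library size alone). The shares over all genes were 22.7% and 11.4%. Beside ITGA1, ITGA2, another collagen-binding alpha subunit, was higher (2.59), with ITGB8 (2.72) and the laminin chain LAMB3 at 2.68, 2.38 and 2.67 CPM against 11.5, 11.7 and 12.7 CPM (2.21). The fibronectin receptor subunit ITGA5 was lower (-0.68). Collagens and the enzymes that modify them had 12 lower and 2 higher of 32 (6 lower with library size alone), with P4HA2, a prolyl hydroxylase, at 201, 196 and 197 CPM against 84.7, 83.7 and 81.0 CPM (-1.25) and PLOD1, a lysyl hydroxylase, at 1425, 1408 and 1365 CPM against 684, 696 and 687 CPM (-1.02). Of 26 epithelial genes 4 were higher (15.4%) and 6 lower (23.1%), and of 18 mesenchymal genes 2 were higher (11.1%) and 5 lower (27.8%). KRT8 was at 1601, 1545 and 1508 CPM against 757, 753 and 759 CPM and KRT19 at 712, 691 and 676 CPM against 336, 334 and 332 CPM, while KRT81, a hair keratin, was higher (4.32). VIM, the mesenchymal filament, was at 10109.8, 9952 and 9636 CPM against 6075, 5917 and 6024 CPM (-0.72), and SNAI1, a repressor of epithelial genes, was lower (-2.07). With library size alone, 9 epithelial and 5 mesenchymal genes were higher and 2 of each were lower.

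NRF2 targets and glutathione genes had 10 lower (30.3%) and 2 higher (6.06%) of 33, and 2 were lower with library size alone. Their median was -0.33, beside -0.32 for the genes over 64 CPM. AKR1C1, an aldo-keto reductase, was at 147, 143 and 139 CPM against 69.9, 66.9 and 68.6 CPM (-1.06). FTL, the ferritin light chain, was at 6054, 5909 and 5622 CPM against 3319, 3327 and 3299 CPM (-0.82). SLC7A11 and GPX3 (1.08) were the 2 higher. Metallothioneins and zinc transporters had 9 lower (45%) and 2 higher (10%) of 20, or 4 and 3 with library size alone, with a median of -0.32. MT1A was at 22.8, 22.98 and 23.6 CPM against 10.0, 9.49 and 9.23 CPM (-1.27). MT2A was at 1819, 1770.1 and 1859 CPM against 1073, 1026 and 1048 CPM (-0.79), and the metallothionein copies share reads. Interferon-stimulated and antigen presentation genes had 8 higher (22.9%) and 10 lower (28.6%) of 35, against 22.7% and 11.4% of all genes. IFITM1, IFITM2 and IFITM3, similar membrane proteins that restrict viruses, were lower (-1.33, -1.09 and -0.996), while MX1 (1.12) and the RNA sensor IFIH1 (0.99) were higher.

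In DNA replication 15 of 47 genes were lower and 1 higher (median -0.34), but with library size alone the count was 4 each way. RRM2, the small subunit of ribonucleotide reductase, was at 394, 391.8 and 374 CPM in parental and 140.1, 145 and 141 CPM in resistant libraries (-1.44), and the helicase subunit MCM4 at 197, 199 and 199 CPM against 101, 100.1 and 101 CPM (-0.98). Mitosis and spindle genes had 7 lower (16.7%) and 2 higher (4.76%) of 42, with the kinases CDK1 (-0.87) and AURKB (-0.81) lower. Library size alone turned this to 1 lower and 10 higher. Among G1 regulators 6 were higher (26.1%) and 7 lower (30.4%) of 23, against 22.7% and 11.4% of all genes. CCND1, the cyclin that growth factors induce, was at 67.2, 68.5 and 71.0 CPM against 147, 147 and 153 CPM (1.11), and the kinase inhibitors CDKN1C and CDKN2D were at 159, 153 and 163 CPM against 41.2, 44.2 and 43.4 CPM (-1.88) and 80.3, 80.8 and 80.2 CPM against 24.0, 25.3 and 26.4 CPM (-1.67); with library size alone 8 were higher and 2 lower. Of 16 BCL2 family members 3 were higher and 3 lower, 18.8% each, against 22.7% and 11.4% of all genes. The death effectors and activators BAK1 and BBC3 were lower (-1.30 and -1.13) together with the protective BCL2L1 (-0.78), and BCL2, BMF and HRK were higher (0.79, 0.83 and 1.15). Of 18 p53 targets 2 were higher and 5 lower (4 and 2 with library size alone), with PLK3 lower (-1.96) and PHLDA3 higher (1.26). Drug-exporting and other ABC transporters had 3 higher and 2 lower of 25 (8 and 0 with library size alone). Their shares, 12% and 8%, lay below those of all genes. The cholesterol exporter ABCA1 was among the higher, at 9.98, 11.3 and 12.4 CPM against 24.6, 23.5 and 27.4 CPM (1.16).

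Numbered ZNF genes, most of which encode zinc finger transcription factors, were higher in 252 of 448 and lower in 11, that is 56.2% and 2.46%. Their median was 0.70 under oxamate and 0.41 without it, and the difference itself was called in 109 upward and in 3 downward. ZNF629 was at 17.8, 17.2 and 18.0 CPM in parental and 63.4, 61.3 and 60.8 CPM in resistant libraries (1.81, SE 0.03), and ZNF189 at 1.91, 2.08 and 2.01 CPM against 16.04, 15.5 and 14.99 CPM (2.95). ZNF296 was on the other side, at 40.7, 38.1 and 41.5 CPM against 9.36, 9.74 and 10.1 CPM (-2.04). The ZNF genes lay mostly at low levels, but also at 8 CPM or more 35.6% of 202 were higher, against 12.4% of 9421 other genes at such levels. Chromatin modifiers had 25 higher and 3 lower of 77, and 38 higher with library size alone. Among them were the methyltransferases KMT2E, at 30.7, 31.2 and 34.8 CPM against 85.1, 84.4 and 84.6 CPM (1.39), and NSD1 (1.34), the acetyltransferases KAT6A (1.24) and EP300 (1.61), and ARID1A, a subunit of the SWI/SNF remodeler (1.70). Ribosome biogenesis factors had 12 higher and 3 lower of 60 (19 and 1 with library size alone), and their 20% higher was below the 22.7% of all genes, with LTV1, which matures the small subunit, at 10.7, 11.6 and 11.0 CPM against 28.4, 27.3 and 26.1 CPM (1.30). Splicing factors of the SR and hnRNP families had 3 higher and 9 lower of 39, with CLK1, a kinase of SR proteins, at 99.0, 102 and 102 CPM against 28.8, 28.2 and 28.7 CPM (-1.82), and 5 were lower with library size alone. Cytosolic ribosomal proteins, mitochondrial ribosomal proteins and proteasome subunits had 6 of 76, 5 of 77 and 1 of 37 genes lower and 0, 1 and 1 higher. The shares lower, 7.89%, 6.49% and 2.7%, lay below the 11.4% of all genes. For the cytosolic ribosomal proteins the median was -0.46, and the number lower was 10 without parental replicate 3, 3 without parental replicate 1 or resistant replicate 3, and 0 with library size alone. For the mitochondrial ones it was 3 without parental replicate 1 and 1 with library size alone. Numbered LINC noncoding RNAs were higher in 68 of 159 and lower in 21 (83 and 11 with library size alone), with LINC01521 at 2.49, 2.68 and 2.62 CPM against 13.2, 13.2 and 13.3 CPM (2.35). Nuclear-retained noncoding RNAs were higher in 5 of 13, or in 3 without parental replicate 1 or 2 or resistant replicate 3, and their summed level was 746 to 1410 CPM in the parental and 1290 to 1630 CPM in the resistant libraries. Parental replicate 3 had the highest parental sum. Without it the ZNF count was 259 higher and 10 lower and the LINC count 75 and 21, and the part of nuclear RNA content in these results was not tested. Histone genes had 9 higher (18%) and 6 lower (12%) of 50, against 22.7% and 11.4% of all genes. With library size alone the counts were 15 and 4, and the similar histone copies share reads.

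**Figure D3:**
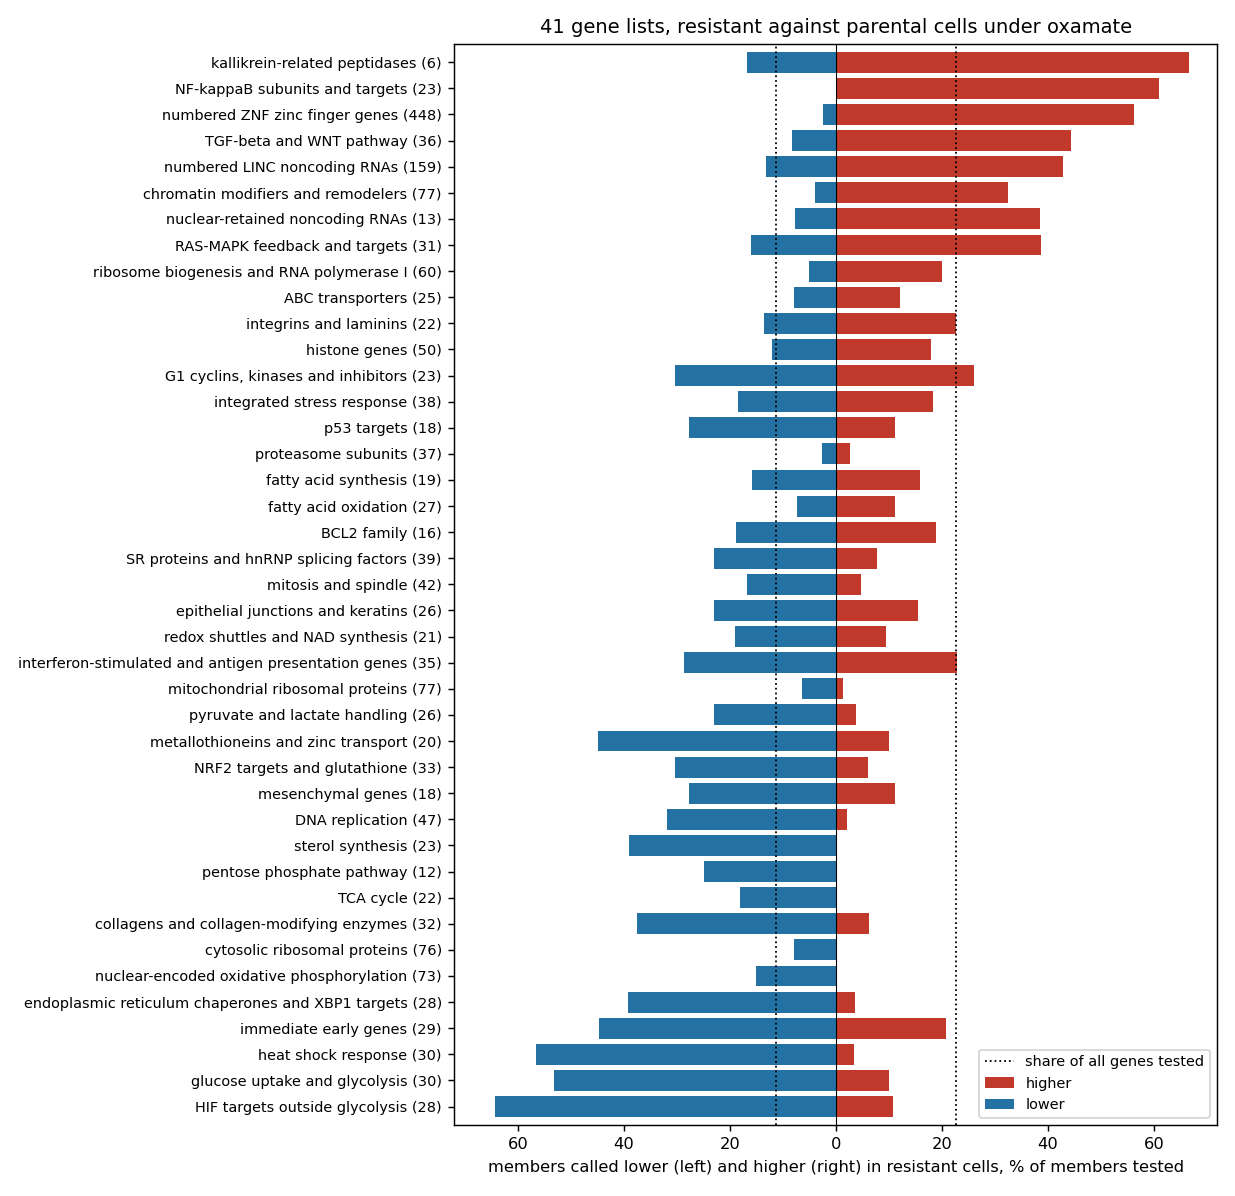
Share of the tested members (number in brackets) of 41 gene lists called lower (left) and higher (right) in resistant cells under oxamate, ordered by the list's median log2 fold change. The dotted lines mark 22.7% higher and 11.4% lower over all genes tested, and HIF targets (64.3% lower) and kallikreins (66.7% higher) are the ends of the order.

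The lines also differed without the drug, where 23.1% of the genes were called, 17% higher and 6.09% lower in resistant cells. Of the 4976 genes called under oxamate, 2772 (55.7%) were called untreated as well, which is 82.5% of the untreated calls, and 2767 of them had the same direction. The other 5 were BLOC1S5-TXNDC5, BMS1P17, BMS1P18, TMX2-CTNND1 and ZNF816-ZNF321P, all of them readthrough transcripts or near-identical pseudogenes whose reads RSEM divides with uncertainty. Whether the line difference itself was altered by the drug was tested as a contrast of the 4 groups, and 7.52% of the genes were called, 4.99% upward and 2.53% downward. Of the 3317 genes higher under oxamate, the difference was wider than without the drug in 680 and narrower in 32. Among the 1659 lower genes it was wider in 205 and narrower in 2. Both sets were chosen by the oxamate contrast, which is itself part of the tested difference, so the choice favours wider over narrower. The same split among the genes called untreated was not counted. These counts therefore do not show how often the line difference widened or narrowed over all genes. Genes not called untreated numbered 1273 of the higher and 931 of the lower, but the change of the difference was called in only 310 and 139 of these, so most cannot be said to differ under the drug alone.

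PPP1R10 had the widest upward change of the line difference among genes called in both contrasts that reached 10 CPM. Untreated parental libraries held 7.68, 7.13 and 7.27 CPM and untreated resistant ones 23.6, 23.4 and 25.2 CPM. The parental values under oxamate lay below the untreated ones and the resistant values above them, and the change was 2.42 on the log2 scale (SE 0.09, adjusted p = 7.49e-11). MAP10, HPS6, which sorts cargo to lysosome-related organelles, EID2, CENPBD1, the WNT antagonist APC, the arginine methyltransferase PRMT6 and CHAC1 followed with 1.91, 1.73, 1.58, 1.48, 1.46, 1.38 and 1.37. In APC the parental level went from 9.02, 9.47 and 10.1 CPM untreated to 3.54, 3.56 and 3.93 CPM in oxamate, while the resistant level was 22.5, 22.7 and 22.4 CPM and 23.5, 24.5 and 24.1 CPM. In all 8 of these upward genes the ratio between the levels with and without the drug was nearer to 1 in resistant than in parental cells. On the other side, ADM was at 36.0, 34.4 and 33.2 CPM in untreated parental and 16.5, 16.8 and 16.3 CPM in untreated resistant cells, a change of -2.27 (SE 0.07, adjusted p = 9.84e-12). From no drug to oxamate its mean went from 34.5 to 42.7 CPM in parental and from 16.5 to 4.23 CPM in resistant cells. ANKRD37 changed by -2.09, CXCR4 by -1.80, GDF15 by -1.79, the stress protein NUPR1 by -1.33, the lipid droplet protein HILPDA by -1.25 and SLC2A3 by -1.18. In ADM, ANKRD37, CXCR4, GDF15 and HILPDA the mean rose with the drug in parental cells and fell in resistant cells. In these genes the ratio was further from 1 in resistant cells. HILPDA was at 46.6, 46.7 and 45.0 CPM and 45.0, 43.7 and 41.6 CPM in untreated parental and resistant cells, nearly the same range, and at 62.2, 63.6 and 64.1 CPM and 25.3, 24.8 and 25.04 CPM under oxamate, far apart. BLOC1S5-TXNDC5, a readthrough symbol, had the largest downward value of those at 10 CPM (-3.08, SE 0.65), with untreated parental values as far apart as 8.86, 2.15 and 5.74 CPM. By list, HIF targets held 10 of 28 genes with a downward and 1 with an upward change, glycolysis 5 and 1 of 30, heat shock 3 and 0 of 30, and chromatin modifiers 0 and 8 of 77.

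**Figure D4:**
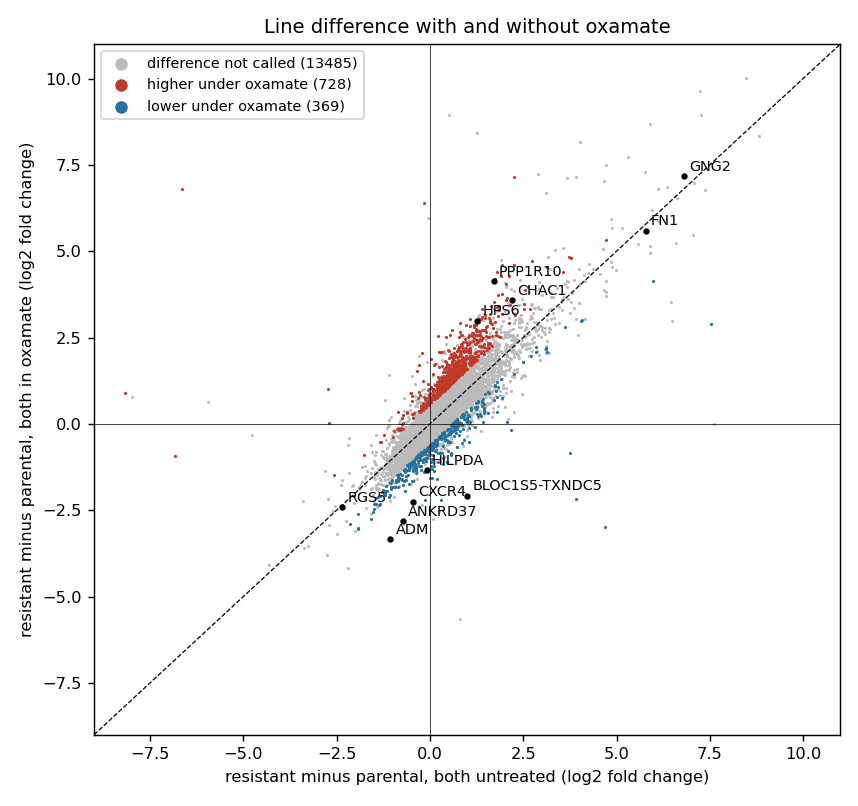
Log2 fold change between resistant and parental cells in oxamate (vertical) against the same without drug (horizontal) for the 14582 genes tested, with the dashed line of equality. The 728 genes in red and 369 in blue had a called change of the difference, and FN1 and GNG2 lie near the dashed line whereas ADM and ANKRD37 lie well below it.

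The line difference followed the level and structure of the genes. Its median was 0.59 in the 2156 genes of at most 1 CPM and -0.32 in the 3248 genes over 64 CPM. Of those over 64 CPM, 18.9% were called lower and 3.97% higher. Genes of low level could pass the count filter through 1 group alone, and the part of this in the medians was not tested. The lists of abundant genes were not matched for level, and the part of level in their decreases was not tested. The 539 genes with a single exon in their longest annotated transcript had a median of 0.44 and 41.9% were called higher, against -0.09 and 18.8% for genes of 6 to 10 exons. The shortest class of transcripts, up to 1000 bases, had a median of -0.34 and the longest class one of 0.31. The same order was seen without the drug, with smaller sizes, from 0.55 to -0.22 for level and from -0.20 to 0.19 for length. By chromosome the medians ran from -0.13 on chromosome 19 to 0.30 on chromosome 18. Every parental library was deeper than every resistant one, so line and depth cannot be told apart in these medians. With all libraries thinned to the smallest, 3266 genes were higher and 1567 lower under oxamate, with a median of 0.019 over all genes. The medians by class were not computed on thinned counts.

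**Figure D5:**
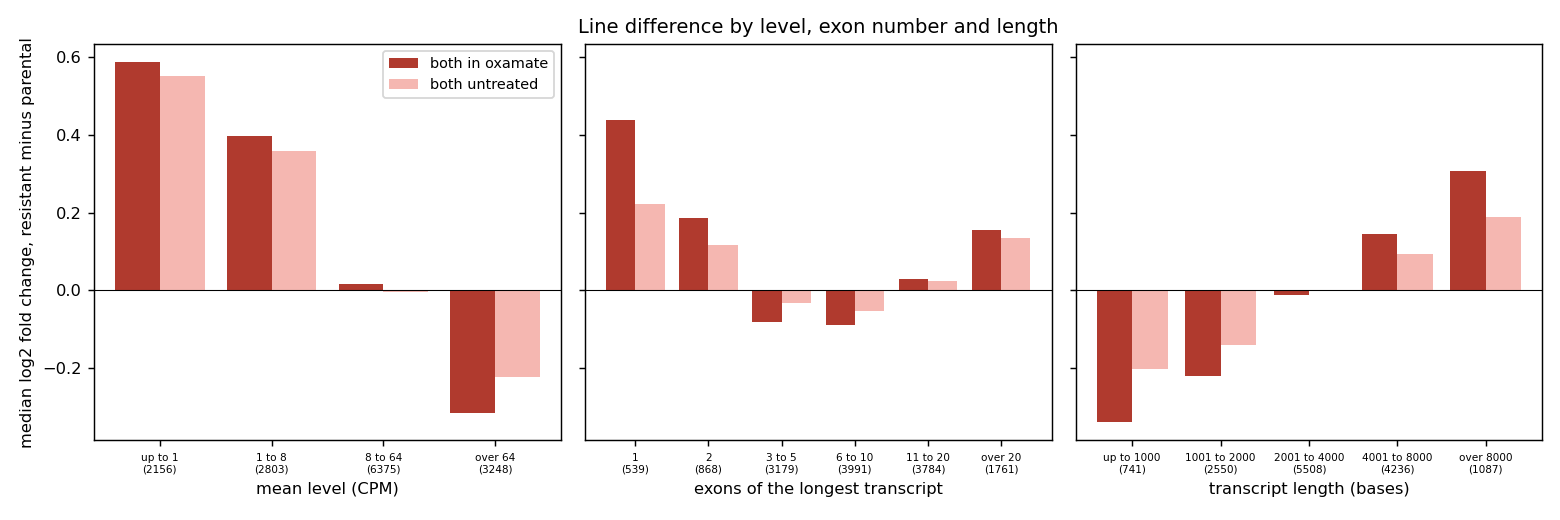
Median log2 fold change between resistant and parental cells in oxamate and untreated, by mean level over the 12 libraries (CPM), by the number of exons and by the length of the longest annotated transcript, with the number of genes in brackets. The medians fall from 0.59 to -0.32 with level and rise from -0.34 to 0.31 with length under oxamate.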

How the data were processed

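RNA-seq was made from 12 libraries of MIAPaCa2 cells, 3 for each of parental and resistant cells, untreated or given oxamate. The deposited values are expected counts per gene that the authors made with Bowtie2 2.1.0 and RSEM 1.2.15 on hg38, according to the submitters' processing notes; 11.6% were not whole and all were rounded here. The study's methods also describe another route, with STAR and featureCounts, whose whole counts would not give such values. How reads with several possible sources are shared by RSEM limits what can be said of near-identical genes and of readthrough symbols. Groups came from the sample labels.

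Genes were filtered with filterByExpr and scaled by TMM, and all 4 groups were fitted together with edgeR's quasi-likelihood test (edgeR 4.0.16, R 4.3.3), which left 8 residual degrees of freedom. The contrasts were resistant minus parental under oxamate, the same untreated, and the difference of these. Genes were called at an adjusted p (Benjamini-Hochberg) below 0.05 with a fold above 1.5. The procedure was tested on simulated counts. The members and the 41 gene lists were chosen with earlier results of these data known, so a list is described by its counts and its median without a test.

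Named by rule were LDHA and LDHB, the 15 largest changes each way under oxamate with no overlap of replicates and at least 10 CPM, the 8 largest differences between the contrasts each way among genes at 10 CPM, and up to 4 members of each list by p. Any other gene was chosen after its values were seen. Depth ran from 46698729 to 114222169 expected counts, and 3 counts were taken as the floor. Positions are from GENCODE 29 (GRCh38) and promoters from RefSeq (GRCh38.p14). Alternatives were other scalings, filters and fold limits, DESeq2 1.42.0, thinning, a replicate block and leaving out each replicate. A few members of the lists are counted but not reported here by name.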

Additional observations from a re-analysis of the deposited data

Results flagged for a closer look

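The line difference under oxamate was set against that of untreated cells by the contrast of all 4 groups, and 1097 genes differed. Of the genes named by rule, those with a lower difference under oxamate were BLOC1S5-TXNDC5 (-3.08 on the log2 scale), ADM (-2.27), ANKRD37 (-2.09), CXCR4 (-1.80), GDF15 (-1.79), NUPR1 (-1.33), HILPDA (-1.25) and SLC2A3 (-1.18). Those with a higher difference were CHAC1 (1.37), PRMT6 (1.38), APC (1.46), CENPBD1 (1.48), EID2 (1.58), HPS6 (1.73), MAP10 (1.91) and PPP1R10 (2.42). BLOC1S5-TXNDC5 is a readthrough symbol whose reads are shared with other genes.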

How the results depend on the processing

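Scaling, the fold limit and the form of the test moved the counts most. With library size alone, 5203 genes were higher and 550 lower under oxamate, 3789 and 373 untreated, and 1105 and 205 for the difference of the line differences, and the median over all genes under oxamate was 0.34 in place of 0.015. Without a fold limit the counts were 11708 (5923 higher, 5785 lower), 11038 (5602, 5436) and 6438 (3313, 3125). With a fold over 2 they were 2312 (1856, 456), 1456 (1244, 212) and 311 (236, 75). A test against a fold of 1.5 gave 3590 (2476, 1114) under oxamate, 1999 (1477, 522) untreated and 258 (204, 54) for the difference. Leaving out 1 replicate at a time gave 4833 to 5227 calls under oxamate, 3189 to 3434 untreated and 1033 to 1134 for the difference. Leaving out parental oxamate replicate 3 and resistant untreated replicate 3 together, an alternative chosen after seeing the data, gave 5224, 3215 and 1272. The cause of these shifts was not tested beyond what each setting itself changes.

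Replicate numbers are shared between the groups, and the deviations of same-numbered oxamate libraries correlated at 0.0252, 0.0943 and 0.07. The highest value between any groups was 0.245, for replicate 3 of untreated resistant and oxamate-treated parental cells. The labels do not say whether a shared number marks a pairing, and none was fitted in the main test. The replicate block gave 4998 calls under oxamate (3343 higher, 1655 lower), 3367 untreated and 1115 for the difference.

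Of 4913 values for single genes over all settings, 4789 kept direction and call, 89 lost the call and 28 gained it. Direction turned for COL1A2 (0.073) and ZEB1 (0.0773) with library size alone. Among values with 1 replicate left out it turned for HBB (-0.0763 to 0.3282 over the replicates), ITGAM (-0.0583 to 0.2295) and PDGFRB (-0.0188 to 0.451), and parental oxamate replicate 3 gave the highest of each when left out. None of these genes was called under oxamate. Depth limits genes under 1 CPM, where 3 counts are up to 0.0581 CPM.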
